A study of Mus musculus with 16 samples.

Results

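The expression and splicing of 9 genes of the cardiac adrenergic and cyclic AMP pathway were followed in left ventricular RNA of 16 mice. They are the receptors Adrb1, Adra1a and Adra1b, the G protein subunit gene Gnas, the adenylyl cyclases Adcy5 and Adcy6, and the cyclic nucleotide phosphodiesterases Pde3a, Pde4b and Pde4d. They were chosen by symbol, 9 of the 56953 genes counted, and all 9 were among the 18662 genes abundant enough to be tested. Splicing events were taken for the same symbols.

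The mice were wild type (WT) or carried the P635L substitution of RBM20 on both alleles, on a Bl6J background, and both sexes were used. RBM20 is a splicing regulator of heart muscle, and the importer Tnpo3 is a nuclear transport receptor for proteins of this kind. At 4 weeks of age each mouse received 1e12 vector genomes of an AAV9 virus by tail vein injection, and its heart was taken 12 weeks later, at 16 weeks. The virus was either Ctr (a CAG promoter construct for the recombinase iCre and the green fluorescent protein eGFP) or Tnpo3 (the Tnpo3 cDNA). No uninjected mouse was included, and the promoter and remaining parts of the Tnpo3 virus are not given in the sources used here. The groups were WT_Ctr, WT_Tnpo3, P635L_Ctr and P635L_Tnpo3, with 4 mice each. One polyadenylated RNA library was made per mouse, so p-values measure the spread between these mice.

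Noradrenaline and adrenaline reach the cardiomyocyte through beta receptors, which act on the stimulatory G protein Gs, and through alpha-1 receptors, which act on Gq and phospholipase C. Gs activates adenylyl cyclase, which makes cyclic AMP, and cyclic AMP activates protein kinase A, which speeds and strengthens the beat. Phosphodiesterases break cyclic AMP down and keep its signal local, and receptor kinases such as Grk5 switch the receptors off.

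A gene was called at an adjusted p under 0.05 by edgeR over all tested genes. Adra1a was the only member called in P635L_Ctr against WT_Ctr, at 0.268 times the WT_Ctr level, and it was below every WT library in all 8 P635L libraries. Gnas was the only member called between the viruses in P635L hearts, at 0.714 times its P635L_Ctr level with Tnpo3. Pde3a was lower in P635L_Tnpo3 than in WT_Tnpo3 (0.498 times) and WT_Ctr (0.635 times, close to the threshold). Of all tested genes, 14.2% were called in P635L_Ctr against WT_Ctr and 3.88% between the viruses in P635L. In P635L_Tnpo3, 3.72% were called against WT_Tnpo3 and 3.07% against WT_Ctr. No splicing event of a member passed the edgeR test in any comparison, where at most 0.161% of all tested events did.

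Stretches of Gnas messenger RNA show the alternative exon that was followed most deeply among the members. The cassette exon of 45 bases (capitals, GRCm38 chr2:174336747-174336791, plus strand) adds 15 codons to the Gs alpha subunit. It lies here between the last 15 bases of the exon before and the first 15 of the exon after. Without it, the next exon can begin at either of 2 acceptors, of which the one 3 bases earlier (capitals in the last line) adds a codon.
Gnas with the cassette exon: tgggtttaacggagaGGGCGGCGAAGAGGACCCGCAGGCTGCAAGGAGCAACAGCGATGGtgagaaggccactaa
Gnas without it: tgggtttaacggagatgagaaggccactaa
Gnas without it, upstream acceptor: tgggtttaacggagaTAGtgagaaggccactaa

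The other exon shown belongs to the single member event that passed the authors' splicing thresholds, in Pde4b. It has 113 bases (capitals, GRCm38 chr4:102570766-102570878, plus strand) and follows 15 bases of the exon before it. These sequences were read from GENCODE M21 transcripts, matched to the events by the lengths and spacing of their exons, since no GRCm39 genome was used here.
Pde4b exon: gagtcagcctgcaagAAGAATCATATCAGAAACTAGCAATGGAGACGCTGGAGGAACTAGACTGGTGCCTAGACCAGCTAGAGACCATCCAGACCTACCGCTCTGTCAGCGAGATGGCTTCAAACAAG

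Promoters were searched for the cAMP response element, the binding sequence of the kinase A target CREB. RefSeq windows (GRCm38.p6) from 250 bases before to 50 after each transcript start matched 6 of the 9 members, with 13 windows, and none matched Adra1a, Adcy6 or Pde3a. The full element, TGACGTCA, was in 0 of the 13 windows and in 1.79% of all 32851 windows. Its core, TGACG on either strand, was in 5 of the 13 and in 20.8% of all windows, and these sites are printed with the core in capitals (CGTCA where it lies on the minus strand). A match is a description of letters only.
Adrb1, 90 bases before the start, chr19:56722017-56722041: tgcgggagccTGACGcgcggccccg
Pde4b, 34 bases before the start, chr4:102421511-102421535: tttggctgcaCGTCAattttctcat
Gnas, 216 bases before a start, chr2:174329780-174329804: tgtgaggggtCGTCAccaccgcggg
Gnas, 38 and 57 bases before the starts of overlapping windows, chr2:174327701-174327725: gaggttggggCGTCAtcaggctggt

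Libraries held 28493249 to 85922669 reads assigned to genes. The gene listed as ENSMUSG00000119584 took 19.96%, 21.22% and 22.65% of the counts in WT_Ctr 2, WT_Ctr 4 and WT_Tnpo3 4, and 0.70% to 5.30% in the other 13 libraries, so each result below was refitted without those 3. Xist exceeded the Y-linked genes in WT_Ctr 4, WT_Tnpo3 2 and WT_Tnpo3 4, all WT, so sex and genotype are partly confounded. Tnpo3 itself was at 41.6 to 49.4 counts per 1000000 (CPM) in the 8 Ctr libraries and at 231 to 723 CPM in the 8 Tnpo3 libraries, as labelled. The left ventricular label was checked on markers: 8 ventricular cardiomyocyte genes summed to 54430 to 94050 CPM over the libraries, and the atrial genes Sln and Myl7 were too low to be tested. The atrial genes summed to 150.5 to 408.7 CPM in WT_Ctr, 193.7 to 291.2 CPM in WT_Tnpo3, 5139 to 9804 CPM in P635L_Ctr and 918.5 to 4512 CPM in P635L_Tnpo3. Of these Nppa, which diseased ventricles also make, was 28.6 times higher in P635L_Ctr than in WT_Ctr (edgeR adjusted p = 1.85e-05) and lower in P635L_Tnpo3 than in P635L_Ctr (-1.97, adjusted p = 0.0277). Myl4 did not pass in either comparison (adjusted p = 0.279 and 0.222). The part of these genes in the results below was not tested.

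Levels of different genes were compared by gene counts per kilobase of exon, which allow for gene length. On that scale Adcy6 had the highest level of the members in all 4 groups, at 32.9 ± 9.16 CPM per kilobase (SD, n = 4) in WT_Ctr. Adcy5 at 10.8 ± 3.78 and Adra1b at 9.30 ± 3.79 came next in WT_Ctr and overlapped. Adrb1 at 5.01 ± 1.26, Pde3a at 4.72 ± 0.544 and Gnas at 4.04 ± 0.196 formed a further run of neighbours within each other's spread or close to it. Pde4b at 2.09 ± 0.239 and Pde4d at 1.83 ± 0.688 also overlapped. Adra1a had the lowest level in all 4 groups, at 1.22 ± 0.440 in WT_Ctr and 0.329 ± 0.0952 in P635L_Ctr. The place of Gnas in this order cannot be relied on, because its gene counts fell far short of its junction reads, as given with its values. In WT_Ctr the deepest junction event of Gnas averaged 344 CPM of junction reads, and that of Adcy6 8.14. By those reads Gnas was thus far above Adcy6. By gene counts the order changed between groups only among the genes of intermediate and low level: Pde4d, for example, ranked above Pde4b in P635L_Tnpo3.

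**Figure D1:**
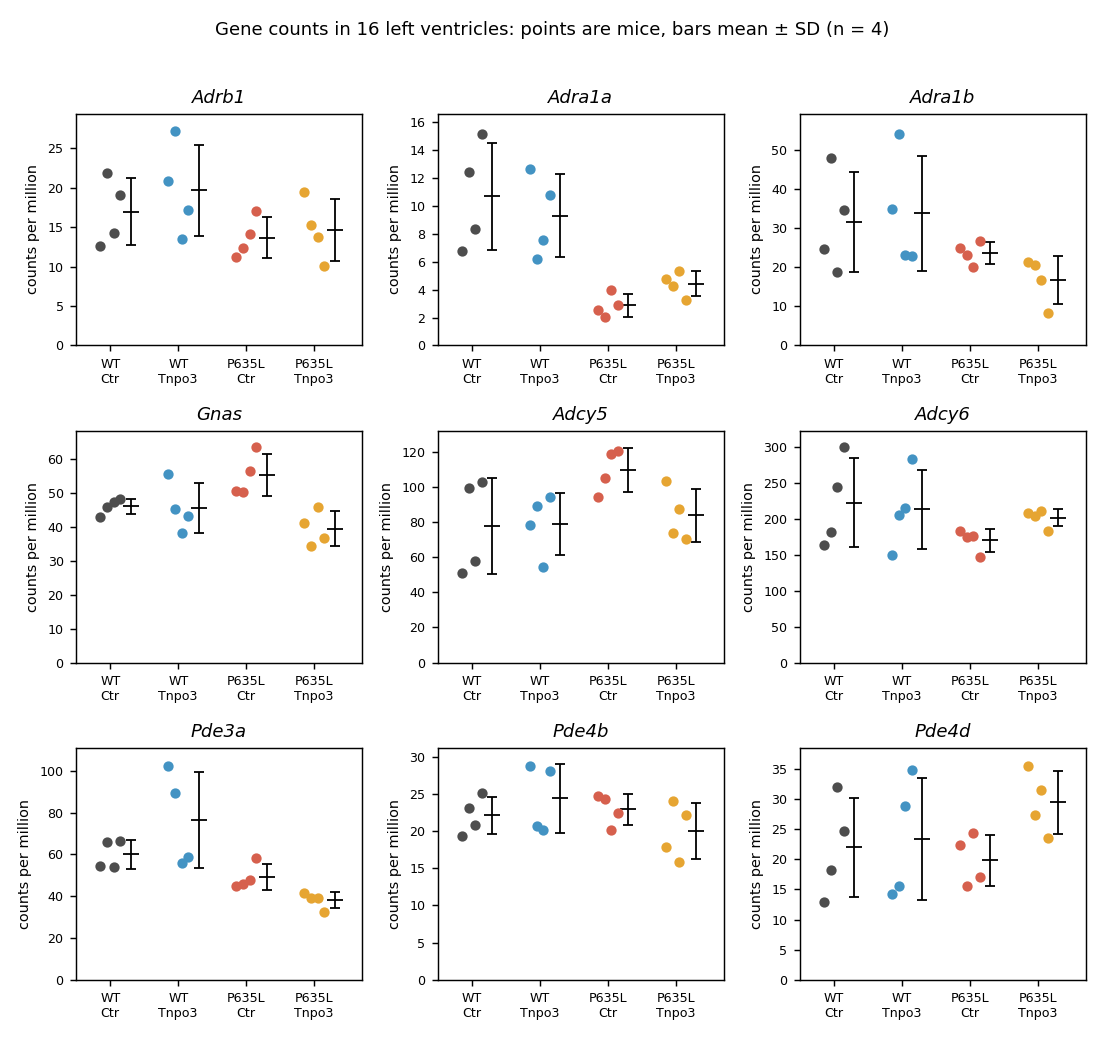
Expression of the 9 members in CPM (vertical axes, linear, from 0) by group, with each point 1 mouse and bars giving mean and SD of 4 mice. All 8 P635L libraries lie below all 8 WT libraries for Adra1a, and the 4 P635L_Tnpo3 libraries lie below the 4 P635L_Ctr libraries for Gnas and Pde3a.

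Adra1a, the alpha-1A receptor (chromosome 14, 66872700 to 67008617, plus strand, GRCm39), had the clearest genotype difference. Its levels in the WT_Ctr libraries were 6.77, 12.5, 8.36 and 15.2 CPM. In WT_Tnpo3 they were 12.7, 6.18, 7.57 and 10.8 CPM. In P635L_Ctr they were 2.56, 2.03, 3.99 and 2.92 CPM, and in P635L_Tnpo3 4.78, 4.26, 5.35 and 3.24 CPM. Every P635L library was thus below every WT library, which 1.54% of the tested genes showed. Adra1a fell in P635L_Ctr against WT_Ctr by 1.90 on the log2 scale (SE 0.283, adjusted p = 0.000175 by the edgeR quasi-likelihood test). The authors' deposited table gives -1.89 for the same difference, with the sign turned to mutant over WT, and an adjusted p of 1.85e-09. With this call, 1 of 9 members passed, beside 14.2% of all tested genes (7.14% lower).

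Adra1a was also lower in P635L_Tnpo3 than in WT_Tnpo3, a comparison that shares no library with P635L_Ctr against WT_Ctr, by a log2 difference of -1.08 (SE 0.276, edgeR adjusted p = 0.0377). Against WT_Ctr the P635L_Tnpo3 difference was -1.28 (edgeR adjusted p = 0.0153). Between the viruses in P635L hearts the difference was +0.62 with a 95% interval of 0.04 to 1.21, the groups overlapped, and it missed the threshold (adjusted p = 0.237). In WT hearts it was -0.20 (interval -0.77 to 0.37). The test of whether the virus effect differed between genotypes gave 0.82 (adjusted p = 0.397). The Adra1a call in P635L_Ctr held in all 19 other fits of the gene counts, and the few reads of its deepest junction event gave -1.62 (adjusted p = 0.0787). The P635L_Tnpo3 calls were less firm: against WT_Ctr the difference was -0.74 (adjusted p = 0.241) without the 3 libraries rich in ENSMUSG00000119584 and lost its call without the high-Xist libraries, WT_Ctr 2, WT_Ctr 4, P635L_Tnpo3 2 or P635L_Tnpo3 4. Against WT_Tnpo3 the call was lost without WT_Tnpo3 1 (-0.89, adjusted p = 0.142), WT_Tnpo3 4 or any P635L_Tnpo3 library.

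In bulk tissue, fewer cells of a type and less RNA per cell cannot be told apart. The summed level of the 8 ventricular cardiomyocyte markers was 76870 to 94050 CPM in WT_Ctr and 54430 to 58540 CPM in P635L_Ctr, with 4 of the 8 called lower. The 5 fibroblast markers summed to 624.6 to 907.3 CPM in WT_Ctr and 1067 to 1566 CPM in P635L_Ctr, with all 5 called higher, and 4 of 5 were lower in P635L_Tnpo3 than in P635L_Ctr. Their part in the member differences was not tested.

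Adrb1, the beta-1 receptor and the main route of adrenergic drive to the cardiomyocyte, did not pass in any comparison. Its levels were 12.7, 21.9, 14.2 and 19.1 CPM in WT_Ctr, and 11.2, 12.3, 14.2 and 17.1 CPM in P635L_Ctr. They were 20.8, 27.1, 13.6 and 17.1 CPM in WT_Tnpo3, and 19.4, 15.2, 13.8 and 10.1 CPM in P635L_Tnpo3. The groups overlapped throughout. The P635L_Ctr difference from WT_Ctr was -0.31 with a 95% interval of -0.79 to 0.17 (edgeR adjusted p = 0.403). Between the viruses in P635L it was 0.10 (interval -0.38 to 0.58).

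Adra1b, the alpha-1B receptor, also signals through Gq. Its WT_Ctr levels spread widely, at 24.6, 48.0, 18.7 and 34.6 CPM, and WT_Tnpo3 was as broad at 34.9, 54.1, 23.0 and 22.8 CPM. P635L_Ctr had 24.9, 23.1, 20 and 26.7 CPM, inside the WT_Ctr range. P635L_Tnpo3 had 21.4, 20.5, 16.8 and 8.15 CPM, all below the WT_Tnpo3 libraries, which 5.70% of tested genes showed. That last difference was -1.01 (SE 0.339) and missed the threshold after adjustment (edgeR adjusted p = 0.11, unadjusted p = 0.00912). Adra1b was called there by DESeq2 (adjusted p = 0.0193) and without the 3 libraries rich in ENSMUSG00000119584 (-1.16, adjusted p = 0.045). In P635L_Ctr against WT_Ctr it was -0.41 (interval -1.12 to 0.31). Whether the Adra1a and Adra1b differences differ from each other was not tested.

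Gnas encodes the alpha subunit of Gs, the step between beta receptors and the cyclases (chromosome 2, 174126113 to 174188537, plus strand, GRCm39). Its WT_Ctr libraries lay close together at 43.0, 45.9, 47.2 and 48.1 CPM, and WT_Tnpo3 gave 55.6, 45.1, 38.1 and 43.1 CPM. P635L_Ctr gave 50.6, 50.3, 56.5 and 63.5 CPM, all above WT_Ctr, which 9.71% of tested genes showed. P635L_Tnpo3 gave 41.2, 34.3, 45.7 and 36.6 CPM, all below P635L_Ctr, which 11% of tested genes showed. Gnas fell in P635L_Tnpo3 against P635L_Ctr by 0.48 on the log2 scale (SE 0.124, edgeR adjusted p = 0.0349). It was the single member called of 9, beside 3.88% of all tested genes (2.25% lower).

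The P635L_Ctr difference of Gnas from WT_Ctr was +0.26 (SE 0.124) and did not pass (edgeR adjusted p = 0.175), and P635L_Tnpo3 differed from WT_Ctr by -0.22 (adjusted p = 0.357). The test of a virus effect that depends on genotype gave -0.47 (adjusted p = 0.283). The call in P635L is close to the threshold: it was lost without any single P635L library except P635L_Tnpo3 3, with values from -0.56 to -0.41 and adjusted p from 0.0402 to 0.136. The comparisons with P635L_Ctr share those 4 libraries.

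Gnas is the member whose gene counts describe it least well. Reads that crossed the splice junctions of its most deeply covered event, the inclusion or skipping of an exon of 120 bases (chromosome 2, 174183603 to 174183722, GRCm39), numbered 172833 over the 16 libraries. The whole gene was assigned 32463 counts, so the junction reads were 5.32 times the gene counts. In the 6 other members with an event in every table the ratio was 0.0246 to 0.132. Among 5103 genes with at least 1000 junction reads the median ratio was 0.17, and 170 of them (3.33%) had more junction reads than gene counts. The gene Gm20721 on the opposite strand (174172112 to 174188505) shares 118 of the 120 bases of that exon and 12.9% of the exon bases of Gnas, and its median count was 5.5. The part of this overlap in the low gene counts was not tested, and the strand setting of the counting is not given in the sources used here.

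Measured by those junction reads, Gnas separated the groups more sharply. This measure was added after the values were seen. In CPM of the junction reads over shared events, the WT_Ctr libraries were at 338, 317, 352 and 367 and the WT_Tnpo3 libraries 393, 343, 321 and 375. P635L_Ctr was at 480, 471, 488 and 537, above all other libraries. How many genes separate in this way on junction reads was not computed. P635L_Tnpo3 was at 339, 332, 347 and 340, inside the WT_Ctr range. The mean ratio was 1.44 in P635L_Ctr against WT_Ctr and 0.687 in P635L_Tnpo3 against P635L_Ctr, each with an exact two-sided permutation p of 0.0286, the smallest that 4 against 4 can give. P635L_Tnpo3 was 0.989 times WT_Ctr (exact permutation p = 0.771) and WT_Tnpo3 1.04 times WT_Ctr (p = 0.486, exact permutation).

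That scaling does not allow for shifts in other abundant transcripts, and under TMM scaling the Gnas junction differences were smaller. Over the 8169 genes with a usable event, edgeR gave +0.26 (SE 0.09, adjusted p = 0.095) in P635L_Ctr against WT_Ctr, which did not pass, beside 7.21% of those genes. It gave -0.36 (SE 0.09, adjusted p = 0.0186) in P635L_Tnpo3 against P635L_Ctr, which passed, beside 6.62% of the genes tested on junction reads. Gene counts and junction reads of Gnas thus gave the same direction and the same calls, and the size of the P635L_Ctr difference moved with the scaling.

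**Figure D2:**
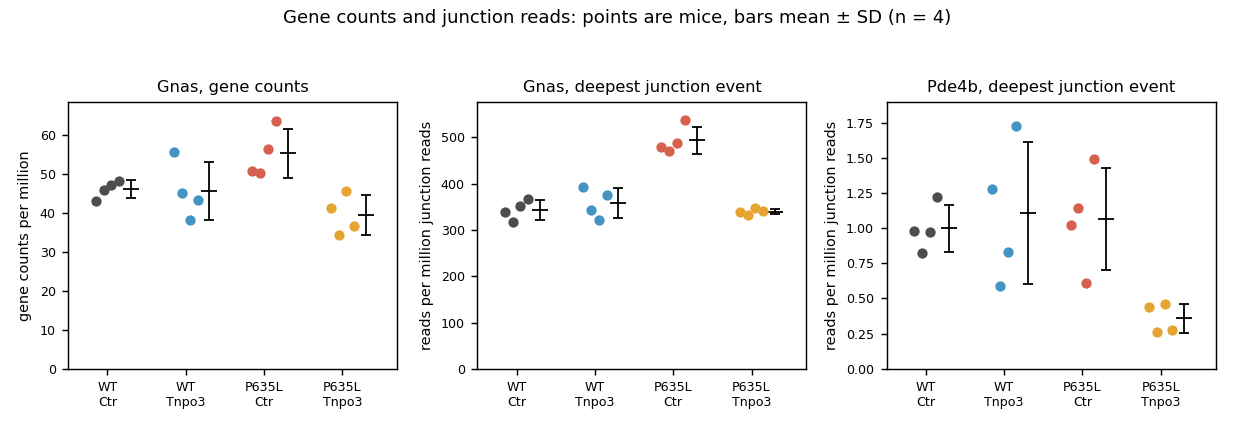
Gnas gene counts in CPM, and reads of the deepest junction event of Gnas and of Pde4b in CPM of junction reads (vertical axes from 0), by group, with each point 1 library. The P635L_Ctr libraries hold 471 to 537 CPM of Gnas junction reads, above the 317 to 393 of the other 12 libraries.

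Adcy6 and Adcy5 encode the main cyclases of the cardiomyocyte. Adcy5 had 51.0, 99.1, 57.7 and 103 CPM in WT_Ctr, where WT_Ctr 2 and WT_Ctr 4 were the high libraries, the same 2 that are rich in ENSMUSG00000119584. It had 94.0, 105, 119 and 120.5 CPM in P635L_Ctr. The difference was +0.50 (SE 0.217, interval 0.04 to 0.95) and missed the threshold (edgeR adjusted p = 0.142). Without the 3 libraries rich in that gene it was 1.04 (adjusted p = 0.00268), with a term for high Xist 0.65 (adjusted p = 0.0307), and without the high-Xist libraries 0.70 (adjusted p = 0.0414), so each of these fits added Adcy5 to the calls. WT_Tnpo3 had 78.2, 88.9, 54.4 and 94.2 CPM and P635L_Tnpo3 104, 74.0, 87.3 and 70.3 CPM. P635L_Tnpo3 differed from P635L_Ctr by -0.39 (adjusted p = 0.36).

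Adcy6 spread more widely in the WT than in the P635L libraries. Its levels were 164, 182, 245 and 300.3 CPM in WT_Ctr and 150.2, 206, 215 and 284 CPM in WT_Tnpo3. P635L_Ctr had 184, 175, 177 and 148 CPM, and P635L_Tnpo3 209, 205, 211 and 184 CPM. Every P635L_Tnpo3 library was above every P635L_Ctr library, which 9.36% of tested genes showed, with a difference of 0.24 (interval -0.14 to 0.62) that did not pass (edgeR adjusted p = 0.527). P635L_Ctr differed from WT_Ctr by -0.39 (interval -0.77 to -0.00, adjusted p = 0.175). The cyclases' differences from WT_Ctr thus had opposite signs in P635L_Ctr, and neither passed.

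Pde3a encodes a phosphodiesterase that breaks down cyclic AMP, is held back by cyclic GMP and is the target of the inotrope milrinone (chromosome 6, 141194995 to 141453174, plus strand, GRCm39). Its WT_Ctr levels were 54.4, 65.8, 53.8 and 66.4 CPM, and its WT_Tnpo3 levels 102, 89.5, 55.8 and 58.9 CPM. In P635L_Ctr they were 44.7, 46.0, 47.7 and 58.2 CPM. In P635L_Tnpo3 they were 41.5, 39.4, 39.3 and 32.4 CPM, below every library of the other 3 groups, which 0.439% of tested genes showed. Pde3a was lower in P635L_Tnpo3 than in WT_Tnpo3 by a log2 difference of -1.005 (SE 0.169, edgeR adjusted p = 0.0024), and this call held in all 19 other fits of the gene counts. With Adra1a, 2 of 9 members passed there, beside 3.72% of all tested genes (2.00% lower).

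Against WT_Ctr the P635L_Tnpo3 difference of Pde3a was -0.65 (SE 0.169, edgeR adjusted p = 0.0408), where 2 of 9 members and 3.07% of all tested genes passed (1.58% lower). That call was lost in 12 of 19 other fits, among them the fit without the 3 libraries rich in ENSMUSG00000119584 (-0.47, adjusted p = 0.25) and those without WT_Ctr 2, WT_Ctr 4 or any single P635L_Tnpo3 library. Neither virus comparison passed: the difference was -0.36 in P635L (adjusted p = 0.253) and +0.35 in WT (interval -0.00 to 0.70). The test of the difference between those effects gave -0.72 (unadjusted p = 0.00752, adjusted p = 0.219). P635L_Ctr differed from WT_Ctr by -0.29 (adjusted p = 0.274). The gene Gm28523 on the opposite strand shares exon sequence with Pde3a and had a median count of 51.5.

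Pde4b and Pde4d encode cyclic AMP phosphodiesterases that sit near the beta receptors and the calcium channels. Pde4b averaged 22.1 ± 2.52 CPM in WT_Ctr, 24.4 ± 4.63 in WT_Tnpo3, 22.9 ± 2.12 in P635L_Ctr and 19.96 ± 3.77 in P635L_Tnpo3 (SD, n = 4). Its P635L_Ctr difference from WT_Ctr was 0.05 with an interval of -0.26 to 0.37. Pde4d averaged 21.96 ± 8.26, 23.3 ± 10.1, 19.8 ± 4.23 and 29.5 ± 5.18 CPM in the same order. Its difference between the viruses in P635L was 0.57 (interval -0.05 to 1.20, edgeR adjusted p = 0.318). Neither gene passed in any of the 6 comparisons of gene counts.

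Reads of Pde4b's deepest junction event gave another picture from few reads. They summed to 87 in WT_Ctr, 97 in WT_Tnpo3, 153 in P635L_Ctr and 43 in P635L_Tnpo3. In CPM of junction reads they were 0.822 to 1.22, 0.587 to 1.73, 0.609 to 1.49 and 0.264 to 0.46 in the same order. The edgeR difference was -1.39 against P635L_Ctr (adjusted p = 0.0463), where 6.62% of the genes tested on junction reads passed. Against WT_Tnpo3 it was -1.60 (adjusted p = 0.0406), beside 3.44%. Against WT_Ctr it was -1.55 (adjusted p = 0.058), beside 1.73%. The gene counts of Pde4b, at -0.20 and -0.29, did not pass in either comparison.

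Over the 9 members, the median log2 difference in P635L_Ctr against WT_Ctr was -0.29, beside -0.05 over all tested genes, and 4 members had an unadjusted p under 0.05, beside 28.1% of all genes. Between the viruses in P635L it was -0.20, beside 0.01, with 3 such members, beside 18.4%. In WT_Tnpo3 against WT_Ctr none passed by edgeR, where 0.00536% of all genes passed, and none had an unadjusted p under 0.05, beside 3.20%. No member passed the test of a virus effect that depends on genotype, beside 0.504% of all genes. The comparisons that share WT_Ctr or P635L_Ctr are not independent of each other.

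**Figure D3:**
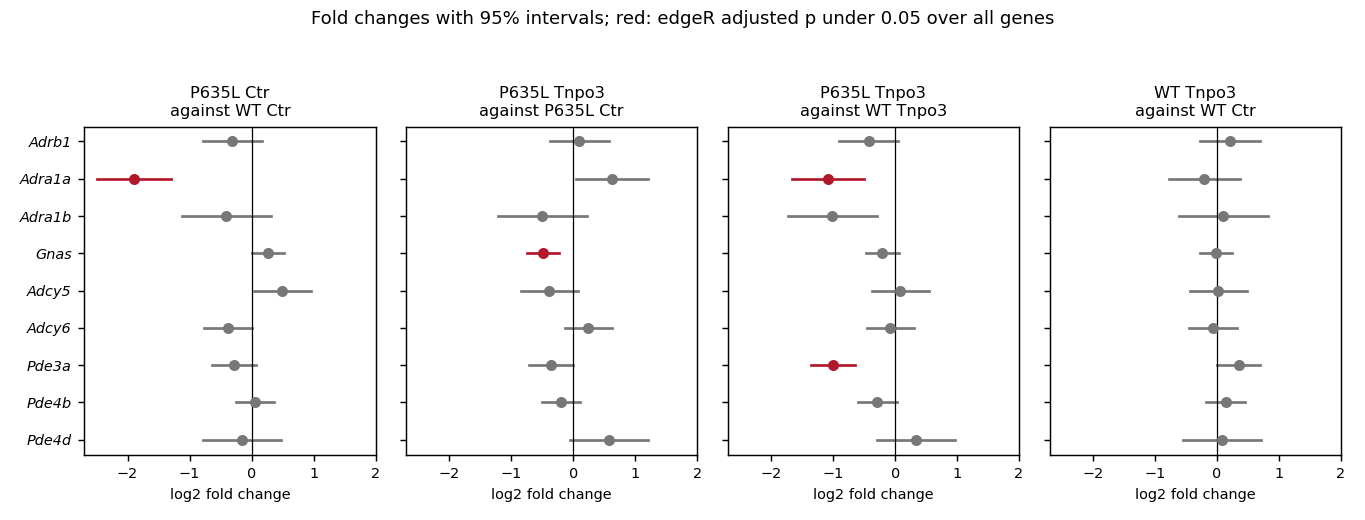
Log2 fold changes of the 9 members in 4 comparisons (horizontal axis, points with 95% intervals from edgeR), with calls at an adjusted p under 0.05 in red. Adra1a lies left of 0 and is called in P635L_Ctr against WT_Ctr and in P635L_Tnpo3 against WT_Tnpo3. Gnas is called only in P635L_Tnpo3 against P635L_Ctr, and most intervals include 0.

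By likeness of their log2 CPM over the 16 libraries, among 12971 genes, the genes closest to Adra1a were Wnk2 (Pearson r = 0.963), Cacna1s (0.962) and Hdlbp (0.954). Closest to Pde3a were Msl3 (0.962), Lman1 (0.957) and Prkacb (0.952), a catalytic subunit of protein kinase A. Closest to Gnas were Gata6 (0.905), Agfg1 (0.898) and Gphn (0.898). These values describe libraries that share depth and composition, and no test was made.

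The rest of the pathway was taken from a list of 82 further genes, of which 79 were tested. In P635L_Ctr against WT_Ctr 15 passed (19.0%, beside 14.2% of all genes), 5 higher and 10 lower. The largest counts were in the phosphodiesterase set (6 of 15) and the cyclases (3 of 7), followed by kinase A, Epac and Popeye effectors (3 of 13). The phosphodiesterase set also held the anchor Pde4dip, which was not called here. There was 1 of 6 receptors, 1 of 12 genes of the G proteins and the Gq arm, and 1 of 6 receptor kinases and arrestins. None of 10 anchoring proteins and none of 10 genes of cAMP-responsive transcription passed by edgeR, and 1 in each set had an unadjusted p under 0.05, beside 28.1% of all genes.

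Grk5, a receptor kinase that silences beta receptors, had the largest called rise of the pathway genes in P635L_Ctr against WT_Ctr. Its levels were 36.6, 43.7, 25.0 and 36.4 CPM in WT_Ctr and 93.0, 96.6, 93.6 and 108 CPM in P635L_Ctr. With Tnpo3, P635L had 53.9, 48.4, 41.5 and 53.4 CPM. It rose in P635L_Ctr by 1.47 (SE 0.165, edgeR adjusted p = 8.27e-06) and fell with Tnpo3 in P635L by 0.99 (adjusted p = 0.00208). WT_Tnpo3 had 47.0, 54.3, 32.1 and 42.0 CPM, and the test of a genotype-dependent virus effect passed at -1.30 (adjusted p = 0.0115).

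Pde1c, a calcium-activated phosphodiesterase, went the other way. It had 37.8, 34.5, 49.0 and 43.8 CPM in WT_Ctr, 10.4, 12.1, 14.5 and 15.8 CPM in P635L_Ctr, and 24.7, 32.3, 28.4 and 27.9 CPM in P635L_Tnpo3. It fell in P635L_Ctr by 1.65 (SE 0.145, edgeR adjusted p = 5.61e-07) and rose with Tnpo3 in P635L by 1.10 (adjusted p = 0.000284). The genotype-dependent virus effect passed at 1.10 (adjusted p = 0.0127). All 8 P635L libraries were below all 8 WT libraries for Pde1c. The same held for Rgs2, Pde7a, Pde2a and Popdc2 and for no other of the 79 pathway genes tested, beside 1.54% of all tested genes. The counts of Pde2a and Popdc2 are uncertain, as given below.

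Rgs2, which shortens Gq signals and so sits below Adra1a, had 24.6, 21.8, 25.0 and 13.1 CPM in WT_Ctr and 5.90, 5.65, 7.96 and 8.74 CPM in P635L_Ctr. It fell by 1.58 (SE 0.221, edgeR adjusted p = 9.75e-05). With Tnpo3 it stayed low in P635L, at 8.74, 9.08, 8.35 and 6.51 CPM, and passed against both WT groups. Pde7a had the same order: 34.0, 33.2, 61.3 and 50.2 CPM in WT_Ctr, 19.2, 18.0, 21.7 and 14.0 CPM in P635L_Ctr and 23.1, 19.1, 27.9 and 25.9 CPM in P635L_Tnpo3. It passed in P635L_Ctr at -1.29 (adjusted p = 0.000242).

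Among the other phosphodiesterases, Pde4a fell in P635L_Ctr by 0.64 (edgeR adjusted p = 0.00207), from 92.3 ± 15.2 to 59.3 ± 4.64 CPM. Pde8a (0.52) and Pde9a (0.80) rose, the former not without P635L_Ctr 3 or P635L_Ctr 4 (adjusted p up to 0.0585) and the latter not without the rich libraries (0.56, adjusted p = 0.0895). Pde2a fell by 2.13 from a low level, 2.11 ± 0.596 CPM in WT_Ctr, and shares exons on its own strand with Gm45837, so its counts are uncertain. Between the viruses in P635L, Pde4c passed at 0.94 (adjusted p = 0.0481) and Pde4dip, an anchor named for its binding to PDE4D, at -0.67 (adjusted p = 0.0368). Both calls were lost without any single P635L library, with adjusted p up to 0.157 for Pde4c and 0.126 for Pde4dip.

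Of the cyclases outside the members, Adcy7 rose from 32.3 ± 11.4 CPM in WT_Ctr to 87.2 ± 22.1 CPM in P635L_Ctr (1.44, edgeR adjusted p = 0.000595). Adcy7 is best known from immune cells and platelets. Adcy1 (-1.83) and Adcy8 (-1.58), cyclases known from neurons, passed from low levels of 3.50 ± 1.78 and 0.902 ± 0.259 CPM. The alpha-2B receptor gene Adra2b passed at -1.07 from 1.57 ± 0.603 CPM. The calls of Adra2b and Adcy8 were lost in 9 and 5 of 19 other fits, with adjusted p up to 0.114 and 0.138, among them those without the rich libraries and without the high-Xist libraries.

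Of the effectors, the kinase A regulatory subunit gene Prkar2a passed at -0.46 (edgeR adjusted p = 0.0278). Its call was lost in 9 of 19 other fits, and without the rich libraries it was -0.17 (adjusted p = 0.409). Of the cyclic AMP binding Popeye genes Popdc2 fell by 0.87 while Popdc3 rose by 0.80, though not without WT_Ctr 4 (0.70, adjusted p = 0.0509). Popdc2 shares exon sequence on its own strand with Cox17, whose median count was 10325 beside 18218 for Popdc2, so its counts are uncertain.

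Between the viruses in P635L 4 of the 79 passed (5.06%, beside 3.88% of all genes): Grk5, Pde1c, Pde4c and Pde4dip. In WT_Tnpo3 against WT_Ctr none passed by edgeR, and none had an unadjusted p under 0.05, beside 3.20% of all genes. In P635L_Tnpo3 against WT_Tnpo3 6 passed (7.59%, beside 3.72%), namely Chrm2, Rgs2, Grk3, Pde1c, Pde7a and Prkacb. Against WT_Ctr 4 passed (5.06%, beside 3.07%), namely Rgs2, Grk3, Pde1c and Pde7a, and both comparisons share the P635L_Tnpo3 libraries.

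**Figure D4:**
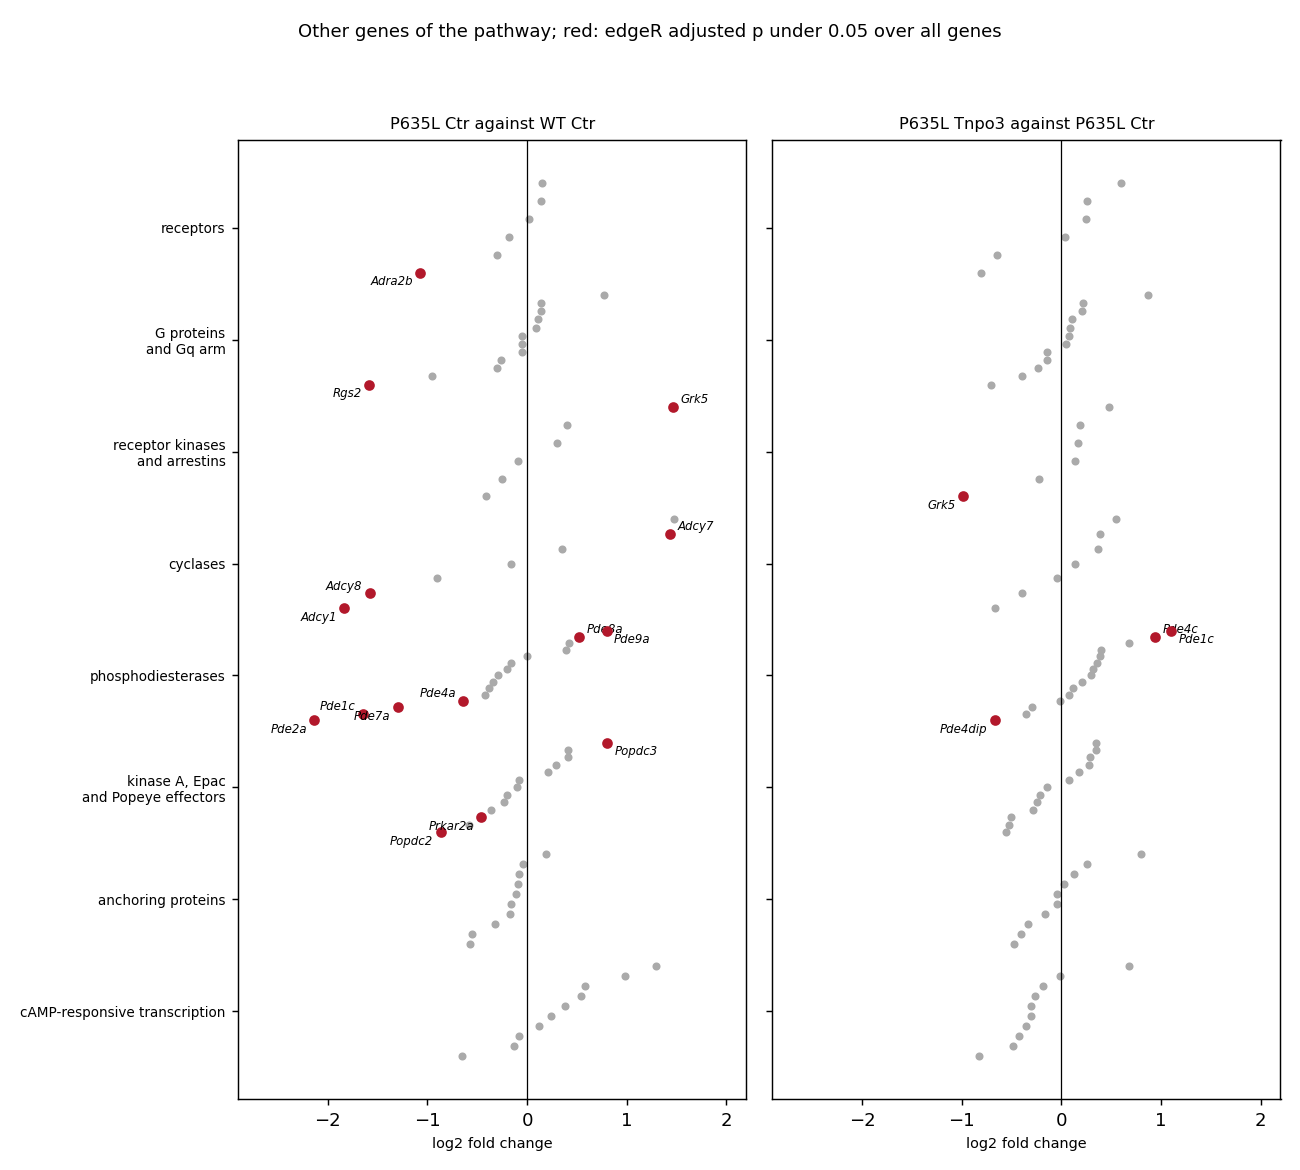
Log2 fold changes of the 79 tested pathway genes, in 8 sets, for P635L_Ctr against WT_Ctr and P635L_Tnpo3 against P635L_Ctr, with each point 1 gene and called genes coloured and named. Grk5 is high in the former comparison and low in the latter, and Pde1c the reverse.

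Splicing was compared from reads over exon junctions, with an inclusion level between 0 and 1 for each event. In P635L_Ctr against WT_Ctr 7 members had 48 events, of which 43 had at least 10 junction reads per library on average in each group. None passed the edgeR test at an adjusted p under 0.05 with a difference of at least 0.1, beside 0.161% of all 34810 events tested. By the same test 5 of the 43 had an unadjusted p under 0.05, beside 7.57% of all events. Events of a gene share junction reads and are not independent, and 26 of the 48 were of Gnas. Apart from an Adra1b exon, the 5 were Gnas listings that share the same skipping junction, with differences of at most 0.01. The largest difference among the 43 tested events was 0.159, and 37 of the 43 were under 0.05. Larger differences occurred in events with too few reads to test, such as -0.338 for a Pde4d exon with 5.75 and 3.5 reads a library on average. In P635L_Tnpo3 against P635L_Ctr none of 32 member events passed (0.0205% of all) and 4 had an unadjusted p under 0.05, beside 5.62%. Those 4 were Gnas listings with that same skipping junction. In P635L_Tnpo3 against WT_Ctr none of 43 passed (0.0346% of all) and 2 did so unadjusted, beside 7.44%. In WT_Tnpo3 against WT_Ctr none of 40 passed, where edgeR and limma called 0 of 31883 events and 3 member events had an unadjusted p under 0.05, beside 5.34%. Adrb1 had no event in any table.

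The Gnas cassette exon printed above (chromosome 2, 174178540 to 174178584, GRCm39) was measured only against skipping onto the later acceptor. On that measure its inclusion level was 0.658 ± 0.0438 in WT_Ctr, 0.688 ± 0.055 in WT_Tnpo3, 0.64 ± 0.0285 in P635L_Ctr and 0.69 ± 0.0153 in P635L_Tnpo3 (SD, n = 4). In WT_Ctr that skipping had 604, 523, 604 and 666 reads. Skipping onto the acceptor 3 bases earlier had 1227, 1011, 1404 and 1331 reads and was left out. These levels thus overstate the share of Gnas messenger RNA with the exon, which was not computed. The P635L_Tnpo3 libraries were at 0.67 to 0.707 and the P635L_Ctr libraries at 0.598 to 0.66, and the other groups overlapped with both. The difference of 0.05 between the P635L groups rested on 2831 to 7708 junction reads a library. It did not pass by edgeR (adjusted p = 0.887, unadjusted p = 0.225). The acceptor 3 bases earlier, also printed above, was used at 0.668 ± 0.0181 in WT_Ctr, 0.686 ± 0.0199 in WT_Tnpo3, 0.665 ± 0.0147 in P635L_Ctr and 0.659 ± 0.00796 in P635L_Tnpo3, and the P635L groups overlapped. Gnas levels thus differed between P635L groups without a called change of these events.

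The Pde4b exon printed above (chromosome 4, 102427963 to 102428075, GRCm39) is listed as mutually exclusive with another. In the authors' deposited table its inclusion difference, WT_Ctr minus the other group, was 0.159 for P635L_Ctr (FDR 0.00897) and 0.215 for P635L_Tnpo3 (FDR 0.000334). It was the only member event past their FDR of 0.05 with a difference of 0.1, beside 2.85% and 2.29% of all events. In WT_Tnpo3 no member event passed, beside 1.16%. The levels by library were 0, 0.436, 0.144 and 0.398 in WT_Ctr and 0, 0, 0.34 and 0 in P635L_Ctr. They were 0, 0, 0.117 and 0 in P635L_Tnpo3 and 0, 0.134, 0.398 and 0 in WT_Tnpo3. Each rested on 5 to 38 reads, the groups overlapped, and by edgeR the P635L_Ctr difference did not pass (adjusted p = 0.668). P635L_Tnpo3 had too few reads to test. The same exon is also listed as a skipped exon, with an inclusion of 0.972 in WT_Ctr and 1 in P635L_Ctr from 15 and 15.5 reads a library on average, and that event did not pass (authors' FDR 1, edgeR adjusted p = 0.69).

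The described events of the other members passed in no comparison by edgeR either. The Adra1a exon at 66964895 to 66965280 had an inclusion of 0.715 ± 0.181, 0.847 ± 0.237, 0.728 ± 0.315 and 0.85 ± 0.3 in WT_Ctr, WT_Tnpo3, P635L_Ctr and P635L_Tnpo3, from 5 to 27 reads a library. The smallest shift detectable at this depth was not computed. In the same order of groups, an Adcy6 intron (98493921 to 98494556) was retained at 0.265 ± 0.0413, 0.221 ± 0.0735, 0.246 ± 0.0686 and 0.327 ± 0.0749. Its difference of 0.081 between the viruses in P635L did not pass (edgeR adjusted p = 0.887). A Pde4d exon of 100 bases (108822528 to 108822627) was included at 0.265 ± 0.0666, 0.23 ± 0.133, 0.179 ± 0.0632 and 0.175 ± 0.05. Its difference of -0.0855 in P635L_Ctr against WT_Ctr did not pass (edgeR adjusted p = 0.696).

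**Figure D5:**
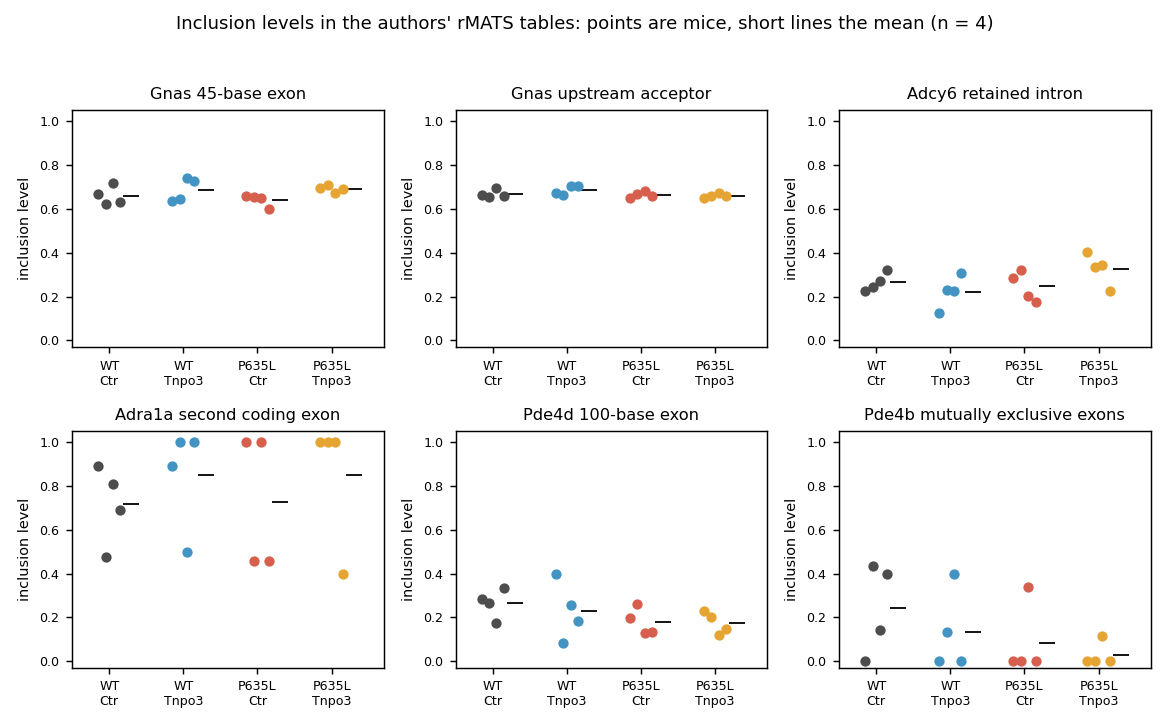
Inclusion levels (vertical axis, 0 to 1) of 6 member events by group, with each point 1 library and short lines the group means. The group means of the Gnas exon, measured only against skipping onto the later acceptor, are 0.64 to 0.69. The Pde4b exon is at 0 in at least 1 library of each group.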

How the data were processed

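RNA of the left ventricle was measured in 16 mice, 1 library each, in 4 groups of 4 taken from the sample titles. The authors deposited read counts per gene and the exon length of each gene. The submitters' processing notes name STAR 2.7.9a, featureCounts 2.0.6, DESeq2 and GRCm39, with no role or order, and the strand setting is not given in the sources used here. The authors also deposited tables of log2 fold changes and their p-values, raw and adjusted, for WT_Ctr against each other group, made with DESeq2 per the file headers' column names and the notes. The authors' splicing tables, in the rMATS format per the file headers, hold junction reads and inclusion levels per library, p-values and FDR, and do not state the order of libraries within a group, so those values are printed in listed order.

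Counts were scaled by TMM, filtered with filterByExpr (18662 of 56953 genes kept) and tested with the edgeR 4.0.16 robust quasi-likelihood F test in R 4.3.3, with all 16 libraries in a fit of 4 groups and 6 contrasts. P-values were adjusted over all tested genes by Benjamini-Hochberg and called under 0.05. CPM uses TMM library sizes. Splicing events were tested where each group averaged 10 or more junction reads a library, with edgeR on inclusion and skipping reads, and called at an adjusted p under 0.05 with a difference of at least 0.1. The events of P635L_Tnpo3 against P635L_Ctr were joined from separate tables. Events in more than 1 table agreed in their WT_Ctr values save 2, which were dropped from joined measures. Alternatives used DESeq2 1.42.0, limma 3.58.1, other scalings, filters, covariates and left-out libraries. Depth was 28493249 to 85922669 counts, and intervals cover the spread between mice.

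Tested on simulated data, the gene fit of P635L_Ctr against WT_Ctr (18143 genes) recovered 71% of genes changed by a log2 of 1 and 100% of those changed by 2. The splicing test of the same comparison (6000 events) recovered 97% of inclusion differences of 0.3, with 10 false calls. Its changed events were drawn only from deeply read events at intermediate inclusion. The recovery therefore does not cover the shallow member events or those at the ends of the inclusion scale. The members and lists were chosen with earlier results of these data known. Events described by library are the Pde4b exon the authors' FDR called and, for each member and event type other than mutually exclusive exons, the deepest tested event at a mean level of 0.1 to 0.9. Named genes were all 9 members, the pathway genes called in P635L_Ctr against WT_Ctr or between the viruses in P635L, the 3 genes most like each called member, and Tnpo3. Pathway genes called in other comparisons are named as well, chosen after their values were seen.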

Additional observations from a re-analysis of the deposited data

Results flagged for a closer look

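The virus effect differed between genotypes for 2 pathway genes by the edgeR test of that difference. For Grk5 the difference was -1.30 (adjusted p = 0.0115), and for Pde1c it was 1.10 (adjusted p = 0.0127). Without the high-Xist libraries neither passed. No member passed this test.

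Single libraries lay far from the other 3 of their group in 5 of the 104 groups checked (members and named pathway genes), where chance marks about 1 in 20, and none was in a member. Rgs2 was at 35.85 CPM in WT_Tnpo3 1 and at 21.01 to 21.35 CPM in the other 3 libraries. Adcy7 was at 49.28 CPM in WT_Ctr 1 beside 25.29 to 27.57 CPM. Adcy1 was at 1.437 CPM in P635L_Ctr 3 beside 0.8022 to 0.8666 CPM, and Pde4dip at 1507 CPM in the same library beside 1249 to 1285 CPM. Pde2a was at 0.2697 CPM in P635L_Tnpo3 4 beside 0.8952 to 0.963 CPM.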

How the results depend on the processing

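The calls of Adra1a in P635L_Ctr against WT_Ctr and of Pde3a in P635L_Tnpo3 against WT_Tnpo3 held in all 19 alternatives of the gene counts. Reads of the deepest junction event gave Adra1a -1.62 there (edgeR adjusted p = 0.0787). That measure and the fits without the high-Xist libraries were chosen after seeing the data. Over all member values 1028 of 1131 kept direction and side of the threshold, 38 were no longer called, 10 became called and 55 turned direction. Causes were not tested.

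In P635L_Ctr against WT_Ctr the members called were 2 without the libraries rich in ENSMUSG00000119584, with the Xist covariate and without the high-Xist libraries, and 0 on junction reads. The authors' FDR called 1 member splicing event there and 1 in P635L_Tnpo3 against WT_Ctr. The pathway count there was 9 at an absolute log2 of at least 1. In P635L_Tnpo3 against P635L_Ctr the members called were 4 when only these groups were fitted (Adcy5, Pde3a, Pde4d and Gnas), 0 at an absolute log2 of at least 1 and 2 on junction reads (Gnas and Pde4b), and 0 to 1 with each library left out. The pathway count was 8 by DESeq2, 19 with only these groups, 10 without the rich libraries, 1 at the fold threshold and 2 with each library left out. All genes called numbered 1363 by DESeq2, 2846 with only these groups, 1482 without the rich libraries and 1282 without the high-Xist libraries, beside 724.

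In P635L_Tnpo3 against WT_Ctr the members called were 1 without ENSMUSG00000119584, with the Xist covariate or at the fold threshold, 0 without the rich libraries, without the high-Xist libraries or on junction reads, and 0 to 2 with each library left out. The pathway count was 8 by DESeq2, 2 with only these groups or the Xist covariate, 1 without the rich libraries, at the fold threshold or without the high-Xist libraries, and 1 to 10 with each library left out. In P635L_Tnpo3 against WT_Tnpo3 the members called were 3 by DESeq2 and without the rich libraries (Adra1b added), 1 with the Xist covariate or on junction reads and 1 to 2 with each library left out. The pathway count was 11 by DESeq2 or without the rich libraries, 2 at the fold threshold and 2 to 10 with each library left out. The genotype-dependent virus effect had 4 pathway calls without the rich libraries and 0 without the high-Xist libraries. It was not run on only the groups compared, since it needs all 4.

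The labels do not say whether the replicate numbers pair the mice. Same-numbered libraries of different groups deviated with correlations of -0.269 to 0.602 (median -0.046), and 6 of 24 pairs exceeded 0.1. For unlike numbers the range was -0.395 to 0.338 (median 0.015), and 22 of 72 exceeded 0.1. Same-numbered pairs of WT_Ctr and WT_Tnpo3 had 0.081, 0.218, 0.364 and 0.602, and the other same-numbered pairs -0.269 to 0.21. Whether the numbers mark a pairing is not settled by these values. With the replicate block, members called were 0 in P635L_Tnpo3 against P635L_Ctr (Gnas -0.49, edgeR adjusted p = 0.0519), 1 against WT_Ctr (Adra1a) and 1 against WT_Tnpo3 (Pde3a), and pathway calls were 2 in P635L_Tnpo3 against WT_Ctr.

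Values that turned direction were small or rested on WT libraries, and none was called. Without the rich libraries, Adrb1 was 0.058 and Adra1b 0.17 in P635L_Ctr against WT_Ctr, Adrb1 0.16, Adcy6 0.016 and Pde4b 0.03 in P635L_Tnpo3 against WT_Ctr, Adcy6 0.088 against WT_Tnpo3, and Adra1a 0.25, Pde4d -0.18 and Gnas 0.073 in WT_Tnpo3 against WT_Ctr. Without the high-Xist libraries, Adra1a was 0.17, Adra1b -0.037, Adcy5 -0.032 and Gnas 0.074 in WT_Tnpo3 against WT_Ctr, and Adcy6 0.071 and 0.15 in P635L_Tnpo3 against WT_Ctr and WT_Tnpo3. With the Xist covariate, Adcy5 was -0.10 in WT_Tnpo3 against WT_Ctr, and Adcy6 0.008 and 0.18 in P635L_Tnpo3 against WT_Ctr and WT_Tnpo3. Gnas in WT_Tnpo3 against WT_Ctr was 0.002 with median-ratio factors, 0.011 without a filter, 0.003 by DESeq2 and 0.014 without ENSMUSG00000119584. On junction reads Pde4b was -0.15 in P635L_Ctr against WT_Ctr, Adcy6 0.037 in WT_Tnpo3 against WT_Ctr and Adcy5 -0.10 in P635L_Tnpo3 against WT_Tnpo3.

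With each library left out, values ran from -0.002 to 0.12 for Pde4b and -0.34 to 0.089 for Pde4d in P635L_Ctr against WT_Ctr, and from -0.071 to 0.24 for Adrb1 and -0.088 to 0.63 for Adcy8 in P635L_Tnpo3 against P635L_Ctr. In WT_Tnpo3 against WT_Ctr they ran from -0.39 to 0.019 for Adra1a, -0.20 to 0.41 for Adra1b, -0.13 to 0.19 for Adcy5, -0.23 to 0.12 for Adcy6, -0.18 to 0.32 for Pde4d and -0.13 to 0.06 for Gnas. In P635L_Tnpo3 they ran from -0.05 to 0.27 for Adcy5 and -0.26 to 0.033 for Adcy6 against WT_Ctr, and from -0.057 to 0.18 and -0.22 to 0.085 against WT_Tnpo3. The genotype-dependent virus effect of Adrb1 ran from -0.29 to 0.062.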
